A study of Mus musculus with 2 samples.

Results

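The genes described here encode the enzymes that carry glucose to lactate, the enzymes that build and break down glycogen, and the carriers that move glucose and lactate across the cell membrane. They are 35 mouse genes in 18 steps, chosen by name as members of these pathways, and all 35 were found among the 43346 gene rows with an Ensembl identifier. Total RNA was sequenced from hearts of B6NCrl embryos, a C57BL/6 substrain, at embryonic day 14.5 (E14.5), with no treatment and no allele given in the labels. There was 1 group of 2 libraries, each labelled as 1 heart and as a biological replicate. Replicate 2 was collected on day 17 of July and replicate 1 on day 15, each from pup 1 of pregnant 2. The labels also give the sex as a pool of males and females, which is at odds with a single heart and was not settled here. Embryo, collection day and library differ together and cannot be told apart.

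Glycolysis splits glucose into pyruvate with a net gain of ATP, and lactate dehydrogenase then exchanges pyruvate with lactate. Glycogen is a branched store of glucose, built by glycogen synthase and branching enzyme and shortened by glycogen phosphorylase. Many of these steps have several isoenzymes (enzymes for the same reaction from different genes), each typical of certain tissues, and the embryonic heart is known for its use of glucose and lactate and its glycogen stores, whereas the adult heart burns mainly fatty acids.

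The libraries held a total expected count (estimated reads per gene, summed) of 28958839 in replicate 2 and 28537173 in replicate 1, and spike-in RNAs took 3.55% and 3.74% of it. Levels are in TPM (a share of all transcripts, corrected for length), so that genes can be compared, and 1 count on a gene of 1 kb was worth 0.0475 TPM in replicate 2, against 0.0478 TPM in replicate 1. The cardiomyocyte markers, all 6 of which were detected, summed to 23306 TPM in replicate 2, against 24557 TPM in replicate 1. The 8 erythroid markers, chiefly globins, stood further apart, at 34540 TPM in replicate 2 and 60858 TPM in replicate 1, 1.76-fold lower in replicate 2. In replicate 2 the summed levels were 175 TPM for 4 endothelial, 1098 TPM for 3 smooth muscle, 1253 TPM for 4 fibroblast and epicardial and 154 TPM for 4 macrophage genes. In replicate 1 they were 188, 1140, 1051 and 161 TPM for the same lists. The 4 neuronal genes summed to 15.0 TPM in replicate 2, against 5.36 TPM in replicate 1, and the 4 liver genes to at most 3.23 TPM in either. Markers at least 2-fold apart included Alas2 and Slc4a1 among the erythroid, Myh11 among the smooth muscle and Tubb3 and Stmn2 among the neuronal genes. In whole-heart RNA, fewer cells of a type and less RNA per cell cannot be told apart.

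Nearly all of the pathway was expressed. In both hearts 34 of the 35 genes reached 1 TPM, the level taken as detected, against 31.5% of all gene rows and 56.8% of protein-coding genes. The exception was Pklr. In both hearts 18 of the 35 reached 100 TPM, against 5.66% of protein-coding genes. The median level of the 35 genes came to 123 TPM in replicate 2, against 120 TPM in replicate 1, and the median of all detected protein-coding genes was 16.1 TPM. Together the 35 genes held 1.80% of all TPM in replicate 2 and 1.73% in replicate 1. All values come from 1 library per heart, so that no test was made between the hearts and SDs are over 2 libraries.

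**Figure D1:**
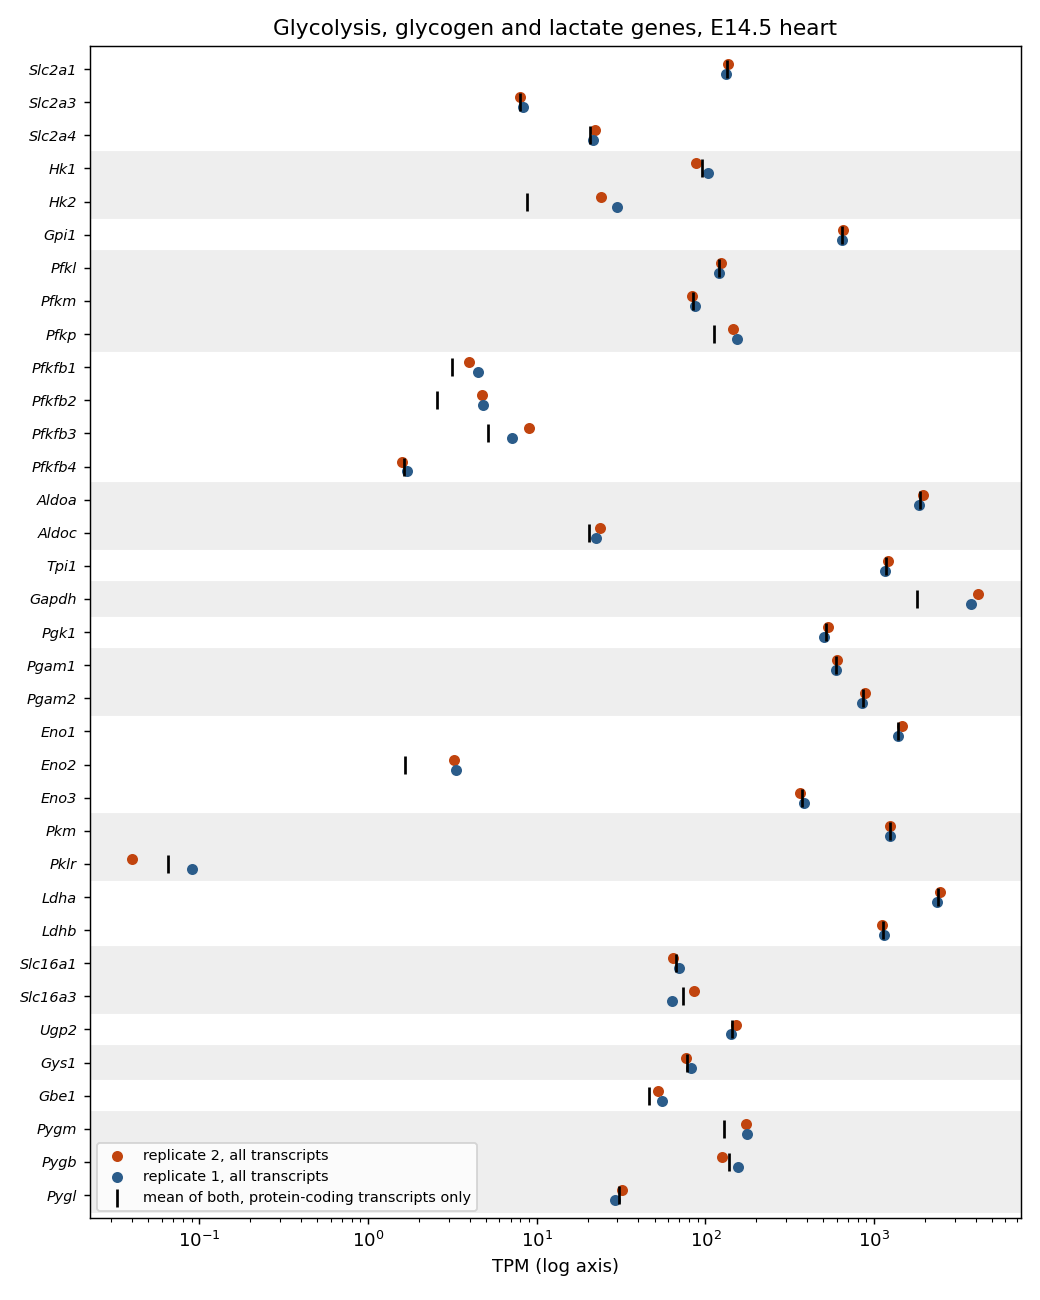
Level of each of the 35 genes in TPM (log axis), in pathway order from top to bottom with steps set apart by shading. Orange points are replicate 2, blue points replicate 1, and black ticks the mean over protein-coding transcripts only. Points of the same gene lie close together, the levels span from 0.04 TPM (Pklr) to 4134 TPM (Gapdh), and the ticks fall clearly left of the points for Gapdh and Hk2.

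Glucose enters through facilitative transporters, and the one that led in both hearts was Slc2a1 (GLUT1, the widely expressed basal carrier), at 137 TPM in replicate 2 and 132 TPM in replicate 1. Slc2a4 (GLUT4, the insulin-regulated carrier of adult heart and muscle) had 22.1 TPM in replicate 2 and 21.4 TPM in replicate 1. Slc2a3 (GLUT3, a high-affinity carrier best known from neurons) had 7.97 TPM in replicate 2 and 8.30 TPM in replicate 1. Slc2a1 thus made up 81.8% ± 0.219 of the summed transporter RNA (SD, n = 2), Slc2a4 13.2% and Slc2a3 4.95%. Slc2a1 stood 6.18-fold above Slc2a4 and 16.5-fold above Slc2a3, and these orders held in both hearts.

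To decide whether 2 isoenzymes of a step differ, the mean log2 ratio of their TPM was set against the difference that single genes show between the 2 hearts. Of 14083 genes, 95% lay within 0.67 on the log2 scale (1.60-fold), and a ratio beyond this limit with the same sign in both libraries was called. Of 24 pairs within steps, 18 passed, and 23 had the same leader in both libraries. The share of other gene pairs that would pass or keep their leader was not computed, so these counts do not set isoenzymes apart.

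Hexokinase phosphorylates glucose and so traps it in the cell. Hk1 (chromosome 10, 62268855 to 62379908, minus strand, GRCm38) had 87.7 TPM in replicate 2 and 103 TPM in replicate 1. Hk2 (chromosome 6, 82725025 to 82774454, minus strand), the insulin-responsive form of adult muscle, had 24.2 TPM in replicate 2 and 29.9 TPM in replicate 1. Hk1 was 3.54-fold above Hk2, and with protein-coding transcripts alone, where Hk2 fell to 8.17 TPM in replicate 2, against 9.33 TPM in replicate 1, the ratio was 10.8-fold. Both genes were lower in replicate 2, by 0.27 on the log2 scale each.

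The gap for Hk2 rests on 1 short transcript. A processed transcript of 594 nt (ENSMUST00000168725), with no coding sequence annotated, took 66.2% of the Hk2 TPM in replicate 2 and 68.8% in replicate 1, but only 15.2% and 16.7% of its estimated counts. All of its bases lie inside exon 18 of 18 of the full-length transcript. Reads from that exon can belong to either model, and TPM gives a read on a short model more weight.

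Most Hk1 RNA was assigned to 2 transcripts with different first exons. The downstream form (ENSMUST00000099691), which starts at 62340013 to 62340542, held 75.5% of the Hk1 TPM in replicate 2 and 70.7% in replicate 1. The upstream form (ENSMUST00000072357), which starts at 62358336 to 62358362, held 22.7% in replicate 2 and 27.3% in replicate 1. The upstream form had 19.9 TPM in replicate 2, against 28.2 TPM in replicate 1. The downstream form had 66.1 TPM in replicate 2 and 73.0 TPM in replicate 1. Hk1 is also the hexokinase of red cells, and the erythroid markers above were 1.76-fold lower in replicate 2; their part in these differences was not tested.

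Gpi1, which converts glucose 6-phosphate to fructose 6-phosphate, had 651 TPM in replicate 2, against 643 TPM in replicate 1. The next step, 6-phosphofructo-1-kinase (PFK-1), commits the sugar to glycolysis and was the most evenly divided of the steps with 3 genes. Pfkp (the platelet form) had 146 TPM in replicate 2 and 153 TPM in replicate 1. Pfkl (the liver form) had 123 TPM in replicate 2 and 120 TPM in replicate 1. Pfkm (the muscle form, chief subunit of adult striated muscle) had 83.6 TPM in replicate 2, against 86.2 TPM in replicate 1. Their shares were 42.0% ± 0.909, 34.1% ± 1.10 and 23.9% ± 0.194. Only Pfkp over Pfkm passed the limit, at 1.76-fold, and with protein-coding transcripts alone this ratio was 1.32-fold, inside the limit. On that count Pfkl led the step at 37.8%, with Pfkp at 35.4% and Pfkm at 26.8%, so that the order of Pfkp and Pfkl was not settled by these data.

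The leading Pfkm transcript differed between the hearts, within the uncertainty of the assignment. Pfkm-202, with its first exon at chromosome 15, 98092589 to 98092665 (plus strand), held 54.5% of the Pfkm TPM in replicate 2 and 46.1% in replicate 1. Pfkm-201, whose first exon lies downstream at 98108466 to 98108611, held 45.5% in replicate 2 and 53.9% in replicate 1. By counts Pfkm-202 had 2605 and Pfkm-201 had 2225 in replicate 2, each with a posterior SD of 229 in the authors' estimate, and 2259 and 2706 in replicate 1, with a posterior SD of 274, so that the lead was not resolved in either heart.

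The 4 bifunctional 6-phosphofructo-2-kinase/fructose-2,6-bisphosphatases (PFK-2/FBPase-2), which set the level of fructose 2,6-bisphosphate, an activator of PFK-1, were the lowest step, at 18.7 TPM summed. Pfkfb3, the isoform with high kinase activity, led with 8.95 TPM in replicate 2 and 7.14 TPM in replicate 1. Pfkfb2, known as the adult heart isoform, had 4.74 TPM in replicate 2 and 4.82 TPM in replicate 1. Pfkfb1 (the liver and muscle isoform) had 3.97 TPM in replicate 2, against 4.50 TPM in replicate 1, and Pfkfb4 (the testis isoform) had 1.59 and 1.70 TPM. Pfkfb3 stood above each of the other 3: it was 1.67-fold above Pfkfb2, 1.89-fold above Pfkfb1 and 4.86-fold above Pfkfb4. In replicate 1 alone the ratio to Pfkfb2 was inside the limit (log2 of Pfkfb2 over Pfkfb3 -0.92 in replicate 2, against -0.57 in replicate 1), and so, narrowly, was that to Pfkfb1 (log2 of Pfkfb3 over Pfkfb1 1.17 in replicate 2, against 0.67 in replicate 1). Pfkfb2 and Pfkfb1 were inside the limit, with a log2 ratio of 0.18 ± 0.11, which was -0.33 with protein-coding transcripts alone. These genes had 106 to 397 counts per library, so that their values are less precise than those of the abundant genes.

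Aldolase splits the 6-carbon sugar, and Aldoa, the muscle and general form, had nearly the whole of it. Aldoa had 1943 TPM in replicate 2 and 1830 TPM in replicate 1. Aldoc (the brain form) had 23.7 TPM in replicate 2 and 22.3 TPM in replicate 1, so that Aldoa was 82.0-fold higher. Tpi1, which interconverts the 2 triose phosphates, had 1201 TPM in replicate 2 and 1161 TPM in replicate 1.

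Gapdh, the dehydrogenase that makes the first NADH of the pathway, was the most abundant of the 35 genes, at 4134 TPM in replicate 2 and 3753 TPM in replicate 1. It ranked 27 of all gene rows. A large part of this level lies on a short model again. Gapdh-208, a processed transcript of 483 nt whose bases all lie inside exons 1 to 4 of the 7 exons of Gapdh-203, took 54.2% of the TPM in replicate 2 and 53.8% in replicate 1, though 25.9% and 25.5% of the counts. With protein-coding transcripts alone Gapdh had 1874 TPM in replicate 2 and 1720 TPM in replicate 1, below Ldha and close to Aldoa. Gapdh also has many near-identical copies in the genome. In all, 84.9% of the 25-base words of Gapdh-203 occur in a transcript of another gene, and 47 annotated copies (genes with at least 50% of their words in Gapdh) held 187 TPM in replicate 2, against 191 TPM in replicate 1, and reads could be split between Gapdh and these copies.

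Pgk1, which makes the first ATP of the payoff phase, had 532 TPM in replicate 2 and 507 TPM in replicate 1. Its processed copies Pgk1-rs7 and Gm5537 held 88.5 TPM in replicate 2, against 82.4 TPM in replicate 1, and 68.4% of its own words are shared with other genes.

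At phosphoglycerate mutase the muscle form was the higher in both hearts. Pgam2, the muscle form, had 876 TPM in replicate 2 and 841 TPM in replicate 1. Pgam1, the general form, had 603 TPM in replicate 2 and 592 TPM in replicate 1. Pgam2 made up 59.0% ± 0.384 of the step. The log2 ratio of Pgam1 to Pgam2 was -0.52 ± 0.02, the same way in both hearts and inside the limit of 0.67, and it was -0.36 when the copies of Pgam1, at 74.2 TPM in replicate 2 and 70.8 TPM in replicate 1, were added to it.

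Enolase gave the opposite order. Eno1, the general form, had 1452 TPM in replicate 2 and 1389 TPM in replicate 1. Eno3, the muscle form, had 363 TPM in replicate 2 and 384 TPM in replicate 1. Eno2, the neuronal form, had 3.23 TPM in replicate 2 and 3.31 TPM in replicate 1. Copies of Eno1 (Eno1b and Gm4735) held 35.9 TPM in replicate 2, against 32.7 TPM in replicate 1, and 78.8% of the Eno1 words are shared. Eno1 was 3.80-fold above Eno3, and Eno3 114-fold above Eno2. The size of the ratio of Eno3 to Eno2 depended on the estimate. It was 227-fold with protein-coding transcripts alone, and its log2 was 6.27 by posterior mean TPM, against 6.84 by TPM. Eno2 had 136 counts in replicate 2 and 150 in replicate 1, so that its level is less precise than those of Eno1 and Eno3. The summed neuronal markers were 15.0 TPM in replicate 2, against 5.36 TPM in replicate 1. The part of neurons in the Eno2 level was not tested.

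The muscle forms Pgam2, Eno3, Pfkm and Pygm are shared by adult heart and skeletal muscle. The skeletal muscle regulator Myod1 had 0 TPM in both libraries and Myog 0.54 TPM in replicate 2 and 0.48 TPM in replicate 1. Mylpf had 12.2 TPM in replicate 2, against 9.04 TPM in replicate 1, and Tnnt3 had 4.52 TPM in replicate 2 and 3.06 TPM in replicate 1. Ckm, which cardiomyocytes also express, had 547 TPM in replicate 2 and 646 TPM in replicate 1. In all, 3 of these 5 markers were at 1 TPM or more in both libraries, and their sum was 564 TPM in replicate 2, against 659 TPM in replicate 1. The part of skeletal muscle cells in the levels of the muscle forms was not tested.

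**Figure D2:**
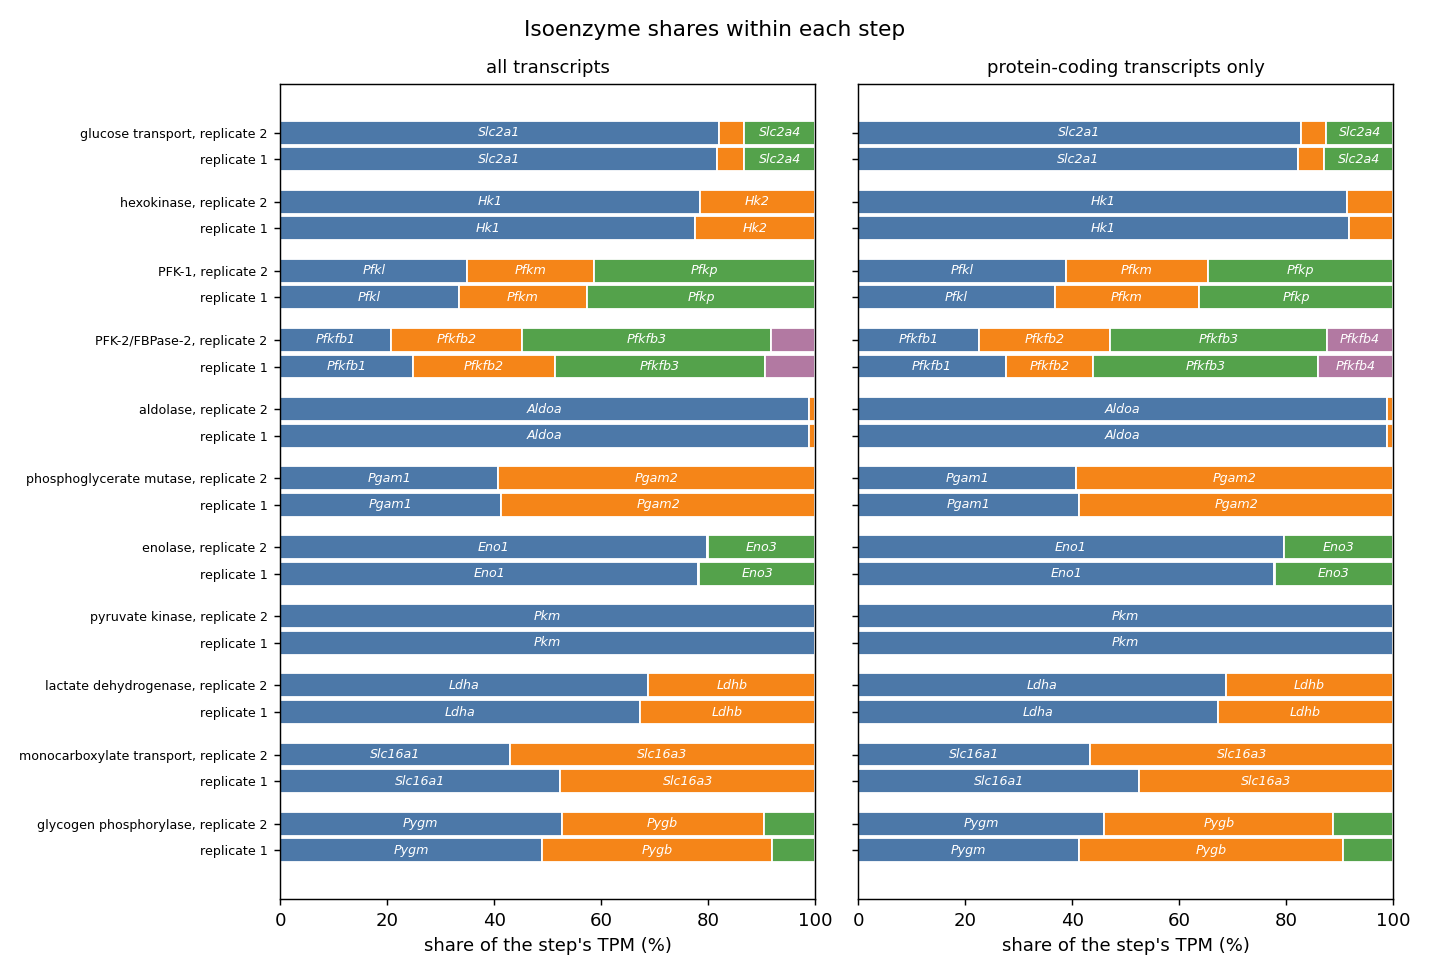
Share of each isoenzyme in the summed TPM of its step, for the 11 steps with more than 1 gene, with replicate 2 above replicate 1 in each pair of bars. The left panel counts all transcripts and the right panel protein-coding transcripts only; segments run in the same gene order in every bar, and those up to 12% carry no name. Most boundaries sit at nearly the same place in both hearts, the monocarboxylate transporters cross the middle, and Hk2 shrinks to 8.44% in the right panel.

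Pyruvate kinase makes pyruvate and the second ATP. Pkm had 1248 TPM in replicate 2, against 1244 TPM in replicate 1. Pklr, the gene of the liver and red cell forms, had 2 counts in replicate 2 and 5 in replicate 1, or 0.04 and 0.09 TPM. The ratio of Pkm to Pklr was 31200 in replicate 2 (exact 95% counting interval 9766 to 291328) and 13821 in replicate 1 (5995 to 43094). By the posterior mean TPM, another estimate in the deposited tables, the mean log2 ratio was 10.84, against 14.34 by TPM. With so few counts the difference in Pklr between the hearts cannot be read, and the part of red cells, whose markers were 1.76-fold lower in replicate 2, was not tested.

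Pkm is spliced with one of 2 mutually exclusive exons of equal length, and the choice makes the enzyme M1, typical of adult muscle, heart and brain, or M2, typical of embryonic and dividing cells. In the textbook numbering these are exons 9 and 10. Pkm-202 uses the upstream exon (M1), chr9:59675029-59675195 on the plus strand, and Pkm-201 uses the downstream exon (M2), chr9:59675568-59675734. They are shown because this choice is the only reading the files give of which pyruvate kinase the heart made. Each has 167 bases, read 5′ to 3′ from the GENCODE M21 transcripts (GRCm38), and capitals mark the 64 bases at which the pair differs (61.7% identity).
Pkm-202, M1 exon: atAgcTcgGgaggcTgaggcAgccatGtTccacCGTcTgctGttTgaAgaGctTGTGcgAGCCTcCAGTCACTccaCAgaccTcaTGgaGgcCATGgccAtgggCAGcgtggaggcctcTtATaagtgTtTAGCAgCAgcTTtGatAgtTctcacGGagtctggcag
Pkm-201, M2 exon: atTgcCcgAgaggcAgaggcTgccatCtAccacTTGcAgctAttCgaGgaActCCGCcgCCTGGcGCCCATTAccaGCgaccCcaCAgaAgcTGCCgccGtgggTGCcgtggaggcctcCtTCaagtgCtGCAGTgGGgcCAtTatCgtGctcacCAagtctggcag

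The M1 form led in both hearts. Pkm-202 had 936 TPM in replicate 2 and 938 TPM in replicate 1. Pkm-201 had 312 TPM in replicate 2, against 306 TPM in replicate 1. The M1 transcript thus made up 75.0% of Pkm in replicate 2 and 75.4% in replicate 1, by TPM and by counts alike, and the difference between the hearts was under 1 percentage point. Both models are full length and protein coding, so the weighting of short models does not enter here.

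Lactate dehydrogenase is a tetramer of A subunits (from Ldha, the muscle form) and B subunits (from Ldhb, the form that predominates in adult heart). Ldha (ENSMUSG00000063229, chromosome 7, 46841475 to 46855627, plus strand) had 2446 TPM in replicate 2 and 2359 TPM in replicate 1. Ldhb (chromosome 6, 142490249 to 142507957, minus strand) had 1108 TPM in replicate 2 and 1149 TPM in replicate 1. Ldha was 2.13-fold above Ldhb and made up 68.0% ± 1.11 of the step. The order held in both hearts, with a ratio of 2.21 in replicate 2 and 2.05 in replicate 1. Ldhb was 0.10 lower in replicate 2 on the log2 scale, and Ldha differed by 0.00. Words of 25 bases shared with other genes made up 39.6% of Ldha, 47.2% of Ldhb, 42.4% of Gpi1 and 35.4% of Aldoa, whose annotated copies held 11.9 TPM at most.

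The promoters of this pair are shown because the pair differs in level and is often described by its response to oxygen. The hypoxia-inducible factors bind elements with the core ACGTG or GCGTG, and only ACGTG was counted here. The uncounted form GCGTG occurs in the Ldha window and in the Ldhb window. The windows run from 250 bases before to 50 after the start given by RefSeq (GRCm38.p6), and capitals mark ACGTG on either strand (on the reverse strand it reads CACGT, and CACGTG is a match on both). The Ldha window is chr7:46845554-46845853 on the plus strand, and the Ldhb window is chr6:142507908-142508207 on the minus strand.
Ldha: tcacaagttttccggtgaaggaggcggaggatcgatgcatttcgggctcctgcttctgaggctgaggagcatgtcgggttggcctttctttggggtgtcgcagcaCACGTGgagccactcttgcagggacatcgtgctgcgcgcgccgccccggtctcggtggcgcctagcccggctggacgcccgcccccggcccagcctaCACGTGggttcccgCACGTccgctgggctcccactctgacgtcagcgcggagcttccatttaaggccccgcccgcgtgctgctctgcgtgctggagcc
Ldhb: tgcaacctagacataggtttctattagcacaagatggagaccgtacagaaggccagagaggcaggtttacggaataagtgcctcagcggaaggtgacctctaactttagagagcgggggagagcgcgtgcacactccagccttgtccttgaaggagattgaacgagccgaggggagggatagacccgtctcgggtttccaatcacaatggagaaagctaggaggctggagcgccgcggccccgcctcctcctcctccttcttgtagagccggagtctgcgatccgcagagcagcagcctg

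The Ldha window held 5 matches, 4 of them in 2 copies of CACGTG, and the Ldhb window held 0. A further Ldha window, around a start further downstream, also held 0. The last 50 bases of the window with 5 matches did not lie whole within any Ldha transcript model. Those of the downstream Ldha window and of the Ldhb window did lie within a transcript of their gene. In all, 36 of the 52 windows of the listed genes passed this check. Of the 35 genes, 33 had windows in the RefSeq table (52 windows in all, and none for Slc2a3 and Slc2a4). At least 1 match was present in 19 of the 33 genes (57.6%), against 21.8% of all 27025 genes and 23.2% of protein-coding genes with a window. By window, 23 of 52 held it (44.2%), against 20.9% of the windows of protein-coding genes. A match is a description of the letters and not a site of binding.

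Lactate and pyruvate cross the membrane with protons through the monocarboxylate transporters, and here neither gene led beyond the limit. Slc16a3 (MCT4, known for lactate export, chromosome 11, 120948480 to 120960868, plus strand) had 85.5 TPM in replicate 2 and 63.8 TPM in replicate 1. Slc16a1 (MCT1, the widely expressed carrier for uptake and release) had 64.2 TPM in replicate 2, against 70.0 TPM in replicate 1. The log2 ratio of Slc16a1 to Slc16a3 was -0.41 in replicate 2 and 0.13 in replicate 1. This was the 1 of 24 pairs without a common leader. Bsg (basigin), the partner that both carriers need at the membrane, was more abundant than either, at 935 TPM in replicate 2, against 773 TPM in replicate 1, and Emb (embigin), another partner of MCT1, had 7.04 TPM in replicate 2 and 5.57 TPM in replicate 1.

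Glycogen synthesis draws on UDP-glucose, made by Ugp2, which had 151 TPM in replicate 2 and 142 TPM in replicate 1. Its RNA too was assigned mainly to 2 transcripts with different first exons: the downstream form (ENSMUST00000102875) held 55.0% of its TPM in replicate 2 and 56.6% in replicate 1, and the upstream form (ENSMUST00000060895) held 43.8% and 42.1%. Gys1, the muscle form of glycogen synthase, had 77.1 TPM in replicate 2 and 82.2 TPM in replicate 1. Gbe1, the branching enzyme, had 52.5 TPM in replicate 2, against 55.1 TPM in replicate 1. The liver synthase gene Gys2 had 0 TPM in both libraries.

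Glycogen phosphorylase was shared by 2 of its 3 genes. Pygm (the muscle form) had 175 TPM in replicate 2 and 177 TPM in replicate 1. Pygb (the brain form, also found in heart and fetal tissue, chromosome 2, 150786735 to 150831758, plus strand) had 126 TPM in replicate 2 and 156 TPM in replicate 1. Pygl (the liver form) had 32.01 TPM in replicate 2 and 29.1 TPM in replicate 1. Both Pygm and Pygb stood above Pygl, by 5.77-fold and 4.59-fold. Pygm and Pygb did not differ beyond the limit, at 50.7% ± 2.59 and 40.4% ± 3.72 of the step. With protein-coding transcripts alone Pygb had 46.0% and Pygm 43.7%, because the retained-intron model Pygm-203, of 532 nt with 84.4% of its bases inside exons 18 to 20 of the 20 exons of Pygm-201, then drops out. Pygm-203 held 24.4% of the Pygm TPM in replicate 2 and 27.8% in replicate 1, but 4.83% and 5.68% of the counts.

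**Figure D3:**
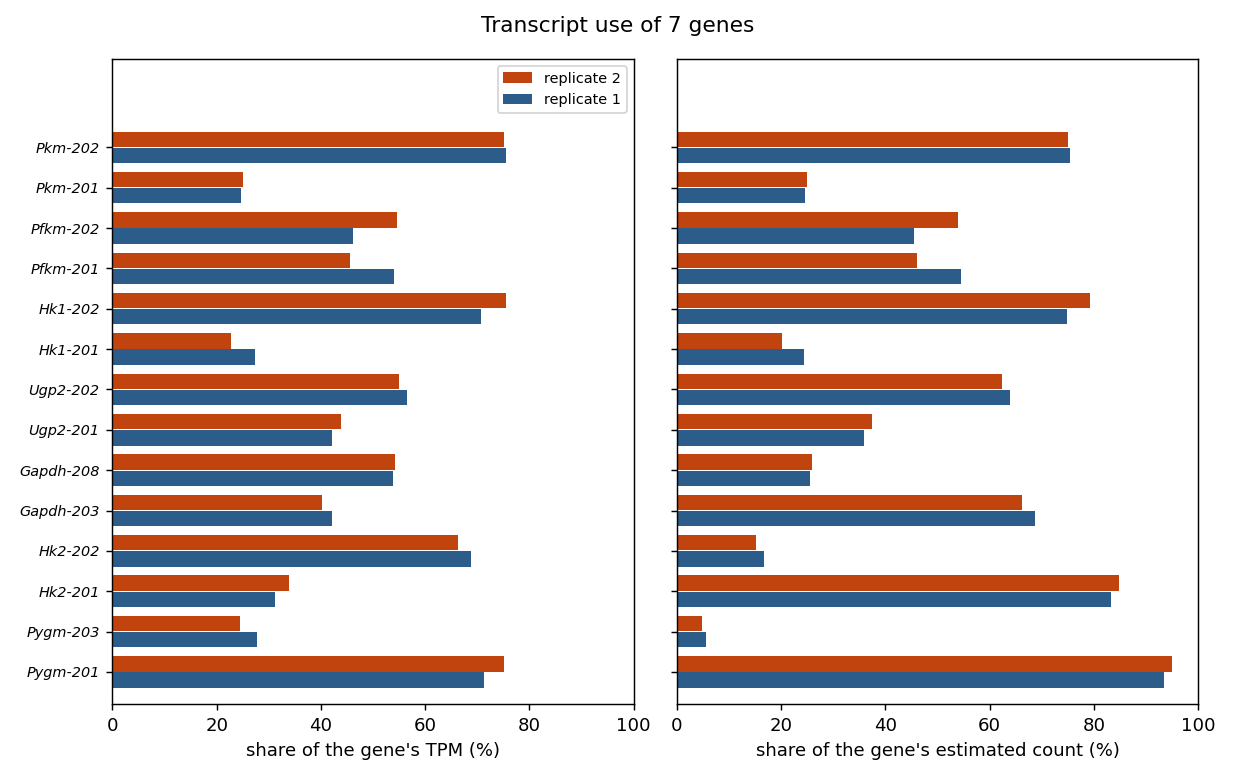
Share of 14 transcripts in their gene's TPM (left) and estimated count (right), with replicate 2 in orange above replicate 1 in blue. Pkm-202 (M1) stands at about 75% in all 4 bars, whereas Gapdh-208, the short Hk2 transcript and Pygm-203 have long bars on the left and short bars on the right.

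Of the 35 genes, 31 had more than 1 transcript in the tables, and 29 of these had the same leading transcript in both hearts. The exceptions were Pfkm and Eno2. In 25 genes at least 90% of the TPM lay on protein-coding transcripts in both libraries, and the leading transcript was not protein coding in 2, Gapdh and Hk2. By counts, Gapdh-203 and the full-length Hk2 transcript led instead. The matching shares over all genes were not computed, so these counts of genes have no background beside them.

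Summed by step, levels differed widely along the pathway. The highest were Gapdh at 3943 ± 269 TPM (SD, n = 2) and lactate dehydrogenase at 3531 ± 32.6 TPM. With protein-coding transcripts alone Gapdh came to 1797 TPM, below lactate dehydrogenase at 3523 TPM and aldolase at 1881 TPM. Aldolase at 1910 ± 80.8 TPM and enolase at 1797 ± 28.7 TPM followed. Phosphoglycerate mutase had 1456 ± 32.9 TPM, pyruvate kinase 1246 ± 2.93 TPM and triosephosphate isomerase 1181 ± 28.7 TPM. The steps that regulate entry were lower, with PFK-1 at 356 ± 4.86 TPM, glucose transport at 164 TPM and hexokinase at 123 ± 15.1 TPM. Among the glycogen steps phosphorylase had 347 ± 20.5 TPM, against 79.7 ± 3.57 TPM for glycogen synthase and 53.8 ± 1.83 TPM for branching enzyme. These are amounts of RNA and not of enzyme or flux.

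**Figure D4:**
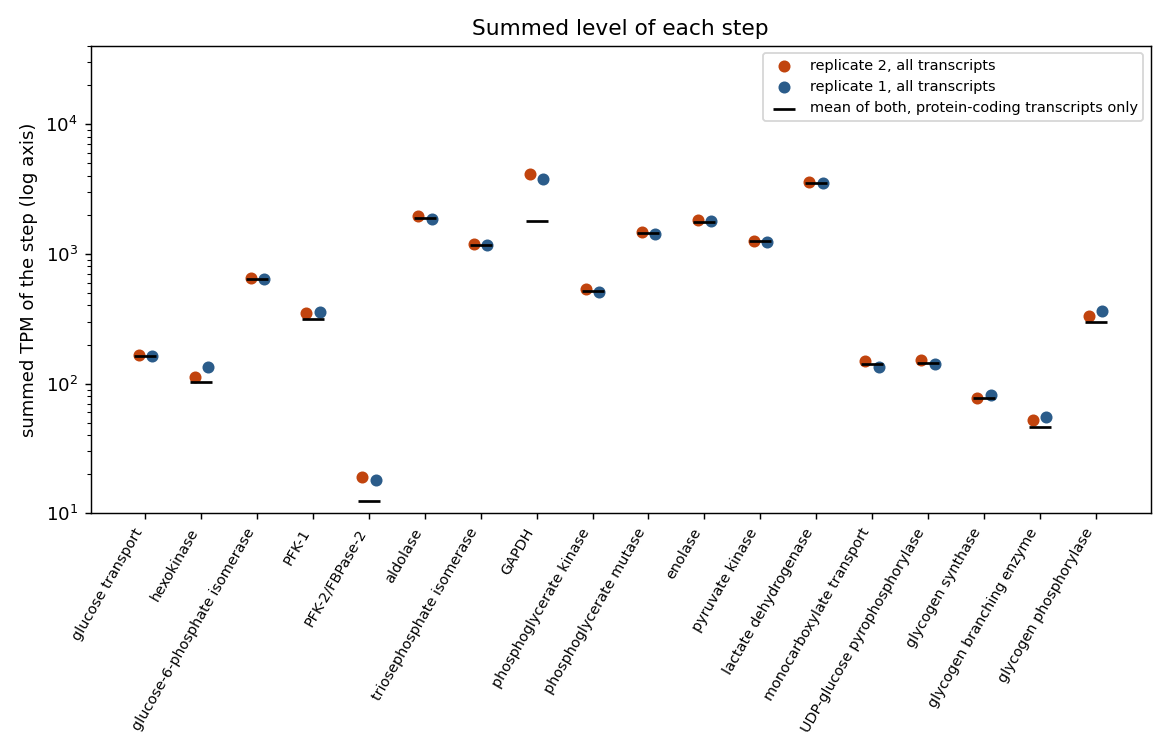
Summed TPM of each of the 18 steps on a log axis, in pathway order from glucose transport to glycogen phosphorylase. Orange points are replicate 2, blue points replicate 1, and black bars the mean over protein-coding transcripts only. The steps from aldolase to lactate dehydrogenase lie at 519 TPM or more, and the PFK-2/FBPase-2 enzymes are lowest at 18.7 TPM.

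Few of these genes stood far apart between the 2 hearts, and the shares were near those of all genes. Differences are given as log2 of replicate 2 over replicate 1 from counts scaled by TMM (a factor that sets most genes equal), with an exact 95% interval that covers counting error only. Among the 34 genes whose mean count was 100 or more, 0 were 2-fold or more apart, against 0.426% of the 11959 genes at that count. At 1.2-fold, a level chosen after the values were seen, 4 of the 34 were apart, against 12.8%. The median absolute log2 difference was 0.075 over these genes and 0.098 over all genes tested, without matching for level. These counts and medians do not set the listed genes apart. In sign, 14 of the 35 were higher in replicate 2 and 21 in replicate 1, and with scaling by spike-ins, which shifts all genes by 0.11, 23 were higher in replicate 2 and 12 in replicate 1, so the balance of signs has no fixed direction.

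Slc16a3 was 1.28-fold higher in replicate 2 (log2 0.36, interval 0.29 to 0.43), with 3611 counts in replicate 2 and 2710 counts in replicate 1. Pygb was 1.29-fold lower in replicate 2 (log2 -0.36, interval -0.40 to -0.32), with 9823 counts in replicate 2 and 12163 counts in replicate 1. Hk1 and Hk2, each lower by 0.27 on the log2 scale, just passed 1.2-fold as well, so that 3 of the 4 were lower in replicate 2. Scaled by spike-ins, 2 genes were 1.2-fold or more apart, Slc16a3 and Pfkfb3, both higher in replicate 2 (log2 0.47 and 0.35), and Pygb, Hk1 and Hk2 were not among them. With TMM scaling, Gbe1 at -0.26 and Pfkfb3 at 0.24 were just inside 1.2-fold. The spread between these hearts beyond counting error was 8.83% per gene (common biological coefficient of variation), and the intervals do not include it.

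**Figure D5:**
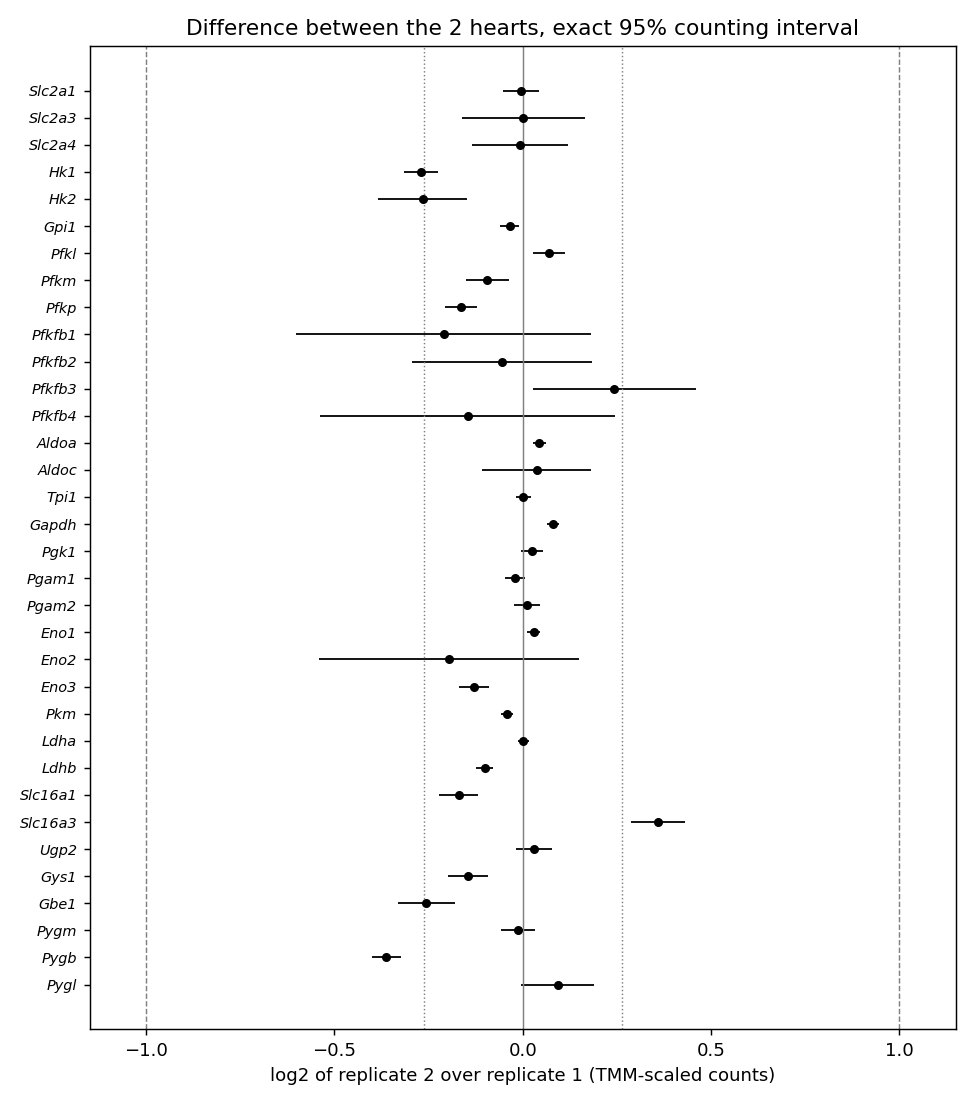
Difference between the hearts for the 34 genes whose mean count was 100 or more, as log2 of replicate 2 over replicate 1, with exact 95% counting intervals. Dashed lines mark 2-fold and dotted lines 1.2-fold; all points lie inside the dashed lines, and only Slc16a3 on the right and Pygb, Hk1 and Hk2 on the left lie beyond the dotted ones.

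Other genes of these pathways, 54 in 4 lists, give the surroundings. All 54 were found and 32 were at 1 TPM or more in both libraries. Of 17 other genes of glycolysis and gluconeogenesis 6 were detected, led by Pgp (phosphoglycolate phosphatase) at 98.5 TPM in replicate 2 and 98.0 TPM in replicate 1. Bpgm, which makes 2,3-bisphosphoglycerate and is best known from red cells, had 30.2 TPM in replicate 2 and 43.7 TPM in replicate 1, lower in replicate 2 as were the erythroid markers; their part in it was not tested. G6pc3, a widely expressed glucose-6-phosphatase, had 21.6 TPM in replicate 2, against 19.4 TPM in replicate 1. Of the genes of gluconeogenesis, Pck2 (the mitochondrial phosphoenolpyruvate carboxykinase) had 18.5 TPM in replicate 2 and 18.1 TPM in replicate 1, whereas G6pc, Pck1, Fbp1 and Fbp2 were under 1 TPM in both.

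Of 10 other transporter genes 6 were detected, with Bsg highest, then Slc2a8 at 13.1 TPM in replicate 2, against 13.3 TPM in replicate 1, then Emb. None of the 3 other lactate dehydrogenase genes (Ldhc, Ldhd and Ldhal6b) reached 1 TPM. Of 24 other glycogen genes 20 were detected. Gyg (glycogenin, the primer of glycogen) had 620 TPM in replicate 2 and 608 TPM in replicate 1, above every synthesis gene of the 35. Pgm1 (phosphoglucomutase, which joins glycogen to glycolysis) had 211 TPM in replicate 2, against 214 TPM in replicate 1. Of the 54 genes, 1 whose mean count was 50 or more stood 2-fold or more apart: Epm2a (laforin, a glycogen phosphatase) had 68 counts in replicate 2 and 32 counts in replicate 1. Its mean count of 50 lay exactly at the cutoff. The share of all genes that far apart at this cutoff was not computed, so this count has no background beside it.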

How the data were processed

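Total RNA of 2 E14.5 hearts was measured, 1 library each, in 1 group, from 10 ng of RNA above 200 nt with spike-ins, per the labels' protocols. Reads were assigned on mm10 with GENCODE M4 gene models, per the deposited notes. The aligner, the quantifier and the use of strand are not stated in these sources, so sense and antisense reads may be mixed. The deposited expected counts are estimated counts that share reads among models. TPM values were scaled by the authors over all rows, per the file headers and sums, and FPKM values in the deposited tables differ from TPM by a constant per library. Posterior standard deviations (a score of uncertainty), credibility bounds of TPM (treated as a signal) and isoform percent values are also as deposited by the authors. Low counts limit precision; intervals and the allowance of 3 counts at a count of 0 cover counting error only, since reads are not independent molecules.

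Names and positions came from GENCODE M21 (GRCm38), matched on the identifier for 42462 of 43346 gene rows; 35 of 35 members matched. Counts were rounded and scaled with edgeR 4.0.16 (TMM, 15735 genes) in R 4.3.3, with a prior count of 0.5 in folds. The TMM step and the folds were tested on simulated data. Alternatives in scaling were DESeq2 1.42.0 size factors, total gene counts and spike-ins. Other alternatives were posterior mean TPM, log2(TPM + 1), protein-coding transcripts only, counts per deposited gene length, other detection levels and each library alone. The deposited gene length gave nearly the TPM ratio for Hk1 over Hk2 (log2 1.86, against 1.82). It is thus not the length of the full-length transcript, and this setting is no check on the weighting of short models. Adding near-identical copies and the 1.2-fold level were chosen after seeing the data. The labels do not name the litters, but both hearts are E14.5 and were collected on days 15 and 17 of July. The spread may be partly technical, which 1 library per heart cannot separate. Members, lists and pairs were chosen with earlier results of these data known. All 35 members are named; of other pathway genes, the 3 of highest mean TPM per list (where detected) and those 2-fold or more apart whose mean count was 50 or more, and of markers those at least 2-fold apart; other names were added after their values were seen. Some genes that this rule would name are not reported here.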

Additional observations from a re-analysis of the deposited data

How the results depend on the processing

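The number of genes detected at 1 TPM was 34 at a minimum of 0.5 TPM, by posterior mean TPM and in each library alone, and 28 at 10 TPM. Called isoenzyme pairs numbered 18, and 16 to 18 under the alternatives; the 2 lost with protein-coding transcripts alone were Pfkp over Pfkm and Pfkfb2 over Pfkfb4. No called pair changed direction under any alternative, and the largest shift with that setting was Hk1 over Hk2, at a log2 ratio of 1.82 with all transcripts and 3.44 with coding ones. With each library alone, 16 to 18 pairs were called; the 2 lost in replicate 1 were Pfkfb2 over Pfkfb3 and Pfkfb3 over Pfkfb1. Pkm over Pklr had the largest shift by posterior mean TPM, at a log2 ratio of 10.84 against 14.34. At 1.2-fold, 2 to 4 genes were apart across the scalings. Genes at least 2-fold apart numbered 0 under each scaling, and 1 without a minimum count (Pklr, with 2 and 5 counts). The same leading transcript was found for 29 genes by TPM, 28 by counts and 25 among coding transcripts. The 25 leave out genes with only 1 coding transcript, and the exceptions there were again Pfkm and Eno2. Scaling by total gene counts gave 18 genes higher in replicate 2 and 17 in replicate 1, and DESeq2 size factors gave 15 and 20. No paired analysis was possible because there is only 1 group.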
